A study of Mus musculus with 13 samples.

Results

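The mitochondrial respiratory chain was described through 41 nuclear genes, of 19938 genes measured, in mouse rectal adenocarcinoma, inflamed rectal mucosa and normal rectal mucosa. The members are 6 core and 17 accessory subunits of complex I, 4 subunits of complex II, 5 of complex III, cytochrome c (Cycs), 6 subunits of complex IV and the heme A synthesis enzymes Cox10 and Cox15. They were taken by name, and each was read from the transcript cluster (the array's probe group for a transcript) that names that gene alone and has the highest mean over the arrays. All 41 members were measured. Ndufa4 is listed with complex IV, of which it is a subunit despite its name.

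The study profiled 13 arrays. The 5 adenocarcinomas and the 4 pieces of inflamed mucosa came from rectal prolapses of mice labelled α6fl/fl Villin-Cre, in which Cre recombinase, driven by the intestinal epithelial villin promoter, removes the floxed α6 integrin gene. Tumours and the mucosa beside them were dissected from frozen sections, whereas the 4 normal mucosae were scraped from the rectum of control mice. Both comparisons with normal mucosa are therefore also comparisons of collection method, and the effects of tissue and collection cannot be told apart. The tumours came from mice aged 53, 60, 60, 64 and 80 weeks, the inflamed mucosae from mice aged 53, 60, 60 and 64 weeks, and the normal mucosae from mice aged 53, 60, 64 and 70 weeks. Each group holds both sexes, and no strain or treatment is named in the labels. The normal samples are called control in one label, while the genotype label gives all 13 samples α6fl/fl Villin-Cre. The targeted gene, Itga6, read 10.75 to 11.16 in normal mucosa, 10.90 to 11.20 in inflamed mucosa and 11.44 to 11.62 in adenocarcinoma on the log2 scale. It was higher in tumours than in normal mucosa, by 0.63 ± 0.10 (adjusted p = 0.000272). Its cluster sums probes along the transcript and other cells of the tissue carry the gene, so it does not check the deletion.

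As background, complex I and complex II pass electrons from NADH and succinate to ubiquinone. Complex III passes them on to cytochrome c, and complex IV passes them from cytochrome c to oxygen. Complexes I, III and IV pump protons across the inner mitochondrial membrane, and ATP synthase uses the gradient. Mature colonocytes are rich in mitochondria and burn butyrate, so the chain is abundant in normal large bowel epithelium. Nuclear genes for these subunits are known targets of the transcription factors NRF1, GABP (of the ETS family) and YY1, and of the coactivator PGC-1α (Ppargc1a).

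Promoters were read from RefSeq (GRCm38.p6), which held an entry for 32 of the 41 members. Each entry spans 250 bases before and 50 bases after the transcript start, and both strands were searched. The letters GCGCANGCG (NRF1) were found in the entries of 9 members and of 10.5% of 15614 genes. The letters CCGGAAG (ETS) were found in 8 members and 13.6% of genes, and AAGATGGCG (YY1) in 5 members and 2.29% of genes. At least 1 of these motifs was in 19 of the 32 members and 23.2% of genes. None of the motifs overlapped another on the stretches printed. With 78.0% of members present, below the minimum of 80% set for such a check, the comparison of shares is void, and the counts describe only these entries.

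The stretches from 150 bases before to 30 bases after the start are shown for 4 members around which the results turn, Ndufa4, which was higher in tumours than in normal mucosa, and Sdhb, Cycs and Cox15, which were lower. Capitals mark a motif match on either strand, and each sequence runs 5′ to 3′ in the direction of transcription. They lie at chr6:11907421-11907600, minus strand, at chr4:140961121-140961300, plus strand, at chr6:50566540-50566719, minus strand, and at chr19:43752971-43753150, minus strand, in that order.
Ndufa4: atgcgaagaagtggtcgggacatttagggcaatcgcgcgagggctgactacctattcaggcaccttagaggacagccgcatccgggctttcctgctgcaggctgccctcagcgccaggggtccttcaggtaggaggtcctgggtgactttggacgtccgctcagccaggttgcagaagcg
Sdhb: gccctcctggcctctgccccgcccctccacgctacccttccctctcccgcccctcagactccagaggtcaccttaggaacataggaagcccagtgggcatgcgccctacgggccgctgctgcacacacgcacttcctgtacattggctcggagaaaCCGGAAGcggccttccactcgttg
Cycs: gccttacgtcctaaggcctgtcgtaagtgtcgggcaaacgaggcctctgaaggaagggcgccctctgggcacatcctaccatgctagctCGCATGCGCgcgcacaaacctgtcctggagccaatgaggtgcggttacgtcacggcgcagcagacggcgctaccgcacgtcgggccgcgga
Cox15: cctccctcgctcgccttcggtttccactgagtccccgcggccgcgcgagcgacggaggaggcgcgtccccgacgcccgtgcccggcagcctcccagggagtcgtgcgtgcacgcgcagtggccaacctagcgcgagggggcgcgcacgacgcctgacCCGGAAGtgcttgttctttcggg
Sdhb and Cox15 carry an ETS match just downstream of the start, Cycs carries an NRF1 match upstream, and Ndufa4 carries none of the 3 motifs in its printed stretch. A match is a description of letters, not evidence of binding.

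Across the chain, levels in the 3 tissues were close, and 9 of 41 members differed between adenocarcinoma and normal mucosa. Ndufa4 and Uqcrq rose in tumours, while Cycs, Sdhb, Sdhc, Cox15, Ndufb3, Uqcrc2 and Ndufs7 fell. Between inflamed and normal mucosa, Sdhb and Ndufb3 fell and no member rose. Between adenocarcinoma and inflamed mucosa, no member passed in that fit, and Uqcrq passed (+0.36, adjusted p = 0.0380) once arrays were paired by number. That pairing is inferred, since the labels do not say which mouse each sample came from. Ndufs7 passed between these 2 tissues under some other settings, given below. Both comparisons with normal mucosa use the same 4 normal arrays. All tests are from 1 limma fit of the 3 groups over all 19938 genes, called at a Benjamini-Hochberg adjusted p below 0.05, and differences are log2 differences of group means with their standard error.

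In adenocarcinoma against normal mucosa, 2 members were called higher and 7 lower, or 22.0% of the members, whereas 35.8% of all genes were called, 16.4% higher and 19.4% lower. The share among the members was thus below the share over all genes. The median difference over the members was -0.06, beside -0.10 over all genes, and 29 of 41 members lay below 0, as did 12509 of 19938 genes. The median size of the difference, sign aside, was 0.14 for the members and 0.24 for all genes. The 95% interval of the difference lay within 1 log2 unit of 0 for 40 of 41 members, with Ndufa4 the exception, and within 0.5 for 32. The same held for 85.4% and 50.7% of all genes. The arrays of the 2 groups did not overlap for 1 member that was higher and 8 that were lower, whereas 26.9% of all genes did not overlap (13% higher and 13.9% lower).

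In inflamed against normal mucosa, 0 members were called higher and 2 lower (4.88%), whereas 26.7% of all genes were called, 13.7% higher and 13% lower. At an unadjusted p below 0.05 the count was 6 of 41 members (14.6%) and 8302 of 19938 genes (41.6%). The median over the members was -0.11, beside -0.10 over all genes, and 33 of 41 members lay below 0, as did 12362 of 19938 genes. The interval lay within 1 log2 unit of 0 for 40 members, Ndufa4 again excepted, and within 0.5 for 32. Over all genes these shares were 86.6% and 50.6%. The arrays did not overlap for Sdhb and Sdhc, both lower in inflamed mucosa, while 27.6% of all genes did not overlap (12.0% higher and 15.5% lower).

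In adenocarcinoma against inflamed mucosa, 0 of 41 members were called by limma, 3 (7.32%) had an unadjusted p below 0.05, as did 3882 of 19938 genes (19.5%), and 7.12% of all genes were called, 2.91% higher and 4.21% lower. Ndufs7 alone had arrays that did not overlap, lower in tumours, as did 5.27% of all genes higher and 6.51% lower. The median over the members was -0.02 and over all genes -0.01. Uqcrq came closest, at +0.39 ± 0.12 (adjusted p = 0.0568), followed by Ndufs7 at -0.29 ± 0.09 (adjusted p = 0.0607). Tumour and inflamed arrays of 1 number carry the same sex and age. Normal mucosa 1, 2 and 4 also carry the sex and age of the tumours of their number, and normal mucosa 6 the sex alone. The match therefore does not show that arrays of 1 number come from 1 mouse. Over all genes, tumour and inflamed arrays of 1 number strayed together from their group's mean, with r of 0.319, 0.198, 0.199 and 0.387. They were taken as pairs. Tumour and inflamed arrays of different numbers reached 0.185. Tumour 1 and normal mucosa 2, also of different numbers, reached 0.283, above the 0.198 and 0.199 of same-numbered arrays. The pairing is thus an inference that the labels do not settle. With the replicate block among tumour and inflamed arrays, Uqcrq was called at +0.36 (adjusted p = 0.0380) and was the only member called.

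**Figure D1:**
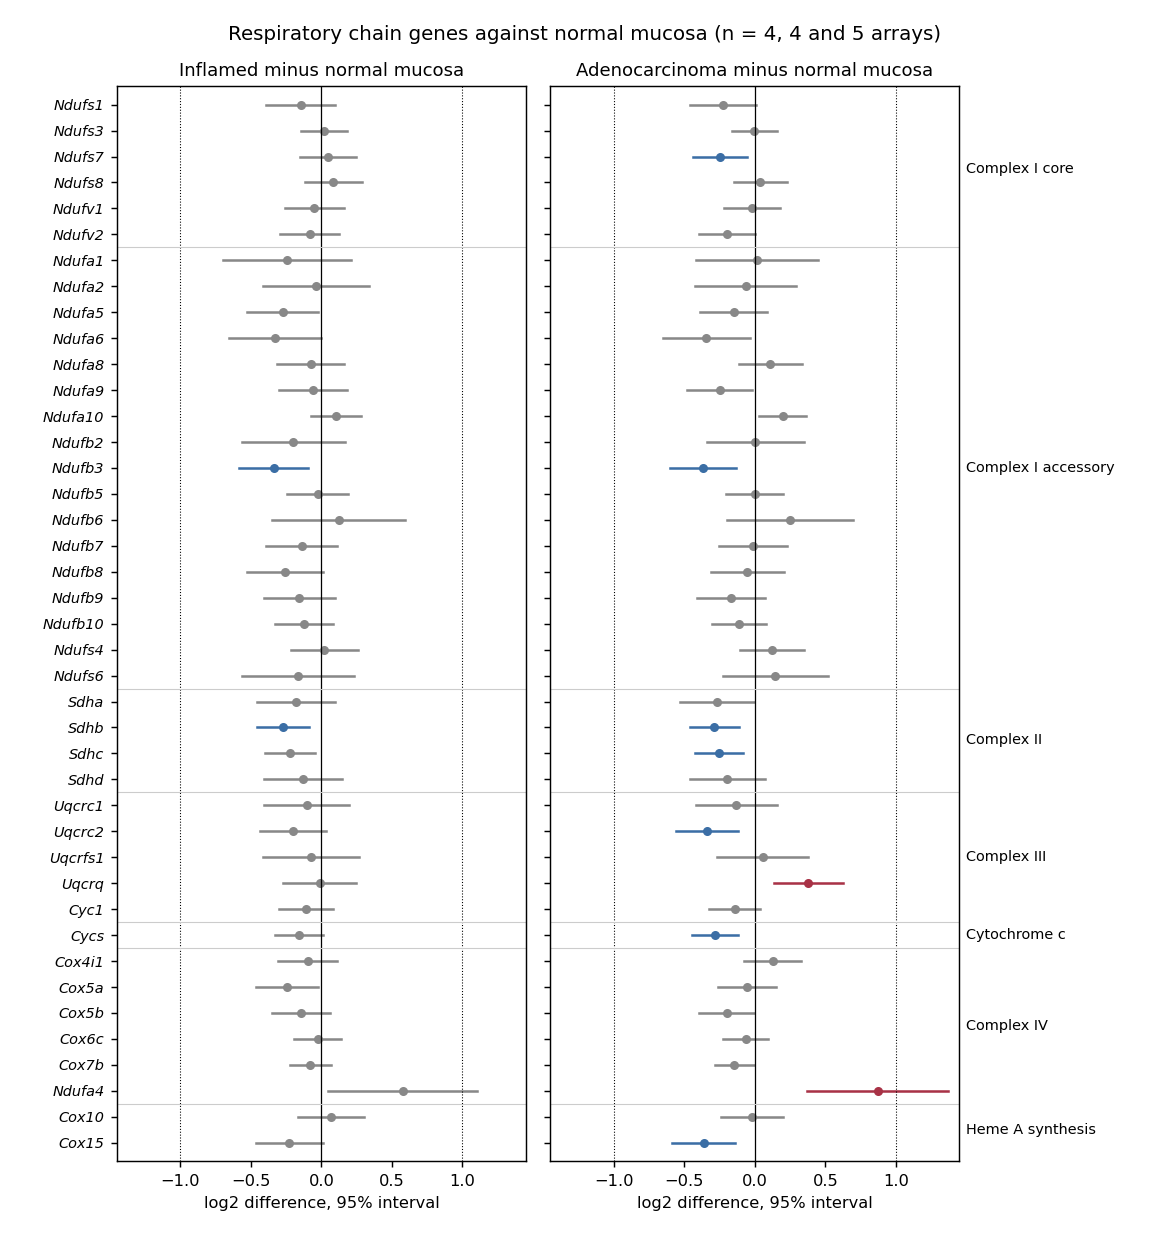
Log2 difference from normal mucosa (points) with 95% interval (lines) for each of the 41 members, by complex, for inflamed mucosa on the left and adenocarcinoma on the right. Blue marks members called lower, red higher and grey not called. Only Ndufa4 has an interval that reaches past 1 log2 unit (dotted lines).

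These calls lean on how arrays are scaled. The median over all genes on each array ran from 6.87 to 6.96 in normal mucosa and from 7.02 to 7.15 in the other groups. Centring every array on that median moved the median of all genes from -0.10 to -0.28 in inflamed against normal mucosa, and from -0.10 to -0.24 in adenocarcinoma against normal mucosa. With that centring, 22 members were called lower in inflamed mucosa, and 1 higher and 19 lower in adenocarcinoma, when 57.1% and 55.7% of all genes were called. The member medians were then -0.30 and -0.20, beside -0.28 and -0.24 over all genes. Ndufa4 kept its direction and call in adenocarcinoma, and no called member changed sign.

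**Figure D2:**
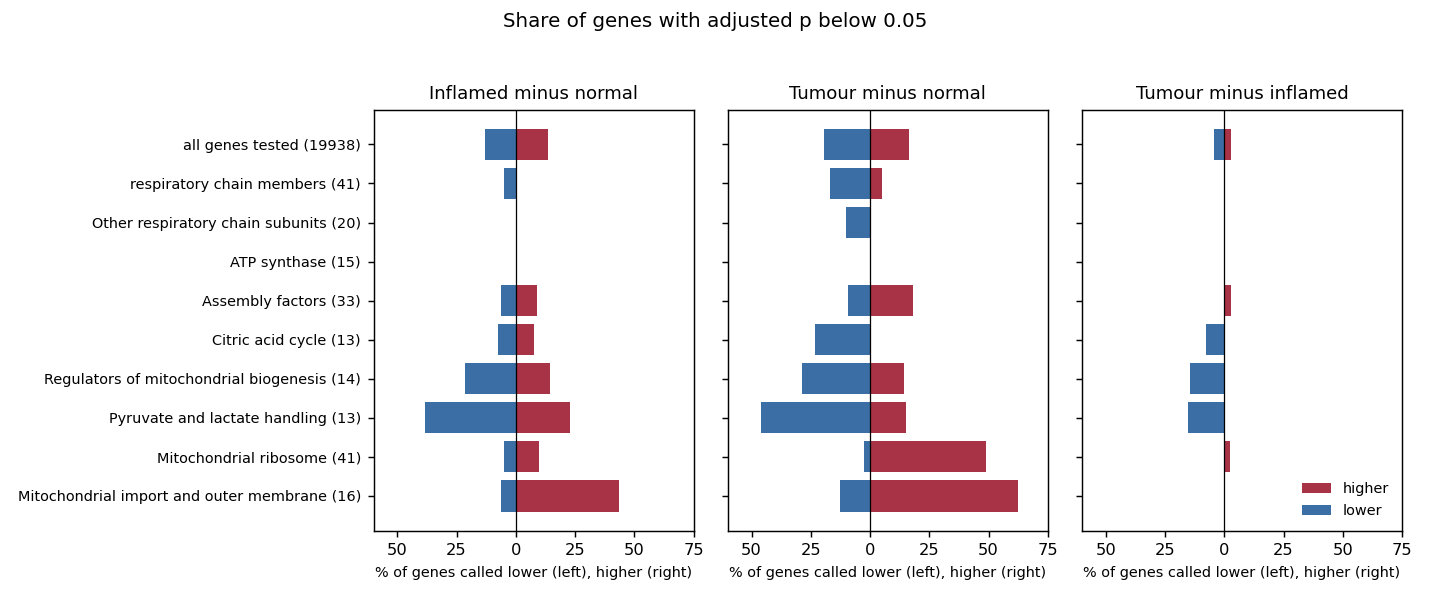
Percent of genes called lower (to the left) and higher (to the right) in each of 3 comparisons, for all genes, the members and other mitochondrial lists, with the number of genes in parentheses. The members (22.0% called in tumours against normal mucosa) sit below all genes (35.8%), while the mitochondrial ribosome and import lists extend to the right in tumours against normal mucosa. With arrays centred on their medians, each of these lists has 10 genes higher and 4 lower there, and more lower than higher in inflamed mucosa.

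Complex I takes electrons from NADH, and its flavin and iron-sulphur clusters lie in core subunits. Of 6 core members, 1 was called in adenocarcinoma against normal mucosa (16.7%, beside 35.8% of all genes). None was called in the other comparisons, where 1, Ndufs7, had an unadjusted p below 0.05 in tumours against inflamed mucosa. Ndufs7 was called there with cyclic loess (-0.27, adjusted p = 0.0419), with a trend and robust variance (0.0438) and with array weights (0.0272). Ndufs7 carries an iron-sulphur cluster near the ubiquinone site. It read 12.06, 12.03, 12.11, 12.14 and 11.85 in the 5 tumours, 12.27, 12.23, 12.27 and 12.55 in inflamed mucosa and 12.20, 12.37, 12.26 and 12.31 in normal mucosa. All 5 tumours lay below all normal and all inflamed arrays. The difference from normal mucosa was -0.25 ± 0.09 (adjusted p = 0.0414), the called member nearest the threshold in that comparison. The call was lost under 6 of 13 other settings and without tumour 1, 2, 3 or 6, inflamed mucosa 1, or normal mucosa 2, 4 or 6, where the adjusted p ran from 0.050 to 0.103. Under the 6 settings it ran from 0.0506 to 0.200, the latter with cyclic loess, where the difference was -0.13. Ndufv2, a flavoprotein-arm subunit with an iron-sulphur cluster, read 11.24, 11.05, 11.25, 11.11 and 11.02 in tumours, 11.29, 11.34, 11.02 and 11.33 in inflamed mucosa and 11.46, 11.26, 11.39 and 11.20 in normal mucosa. The groups overlapped, and the difference of tumours from normal mucosa was -0.20 (interval -0.40 to 0.004, adjusted p = 0.112). Ndufs1, Ndufs3, Ndufs8 and Ndufv1 differed from normal mucosa by -0.23 to +0.09 in the 2 comparisons, with none called.

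Of the 17 accessory subunits of complex I, which support assembly and stability of the enzyme, 1 was called in each comparison with normal mucosa and none in adenocarcinoma against inflamed mucosa, where 0 had an unadjusted p below 0.05. The called gene was Ndufb3, a subunit of the membrane arm. It made up 5.88% of these subunits, beside 35.8% of all genes called in tumours and 26.7% in inflamed mucosa. It read 7.15, 7.07, 7.18, 7.51 and 7.32 in tumours, 7.37, 7.13, 7.11 and 7.49 in inflamed mucosa and 7.65, 7.70, 7.63 and 7.47 in normal mucosa. Tumour 4 and inflamed mucosa 4 reached into the range of normal mucosa, so the groups overlapped. It fell by 0.37 ± 0.11 in tumours (1.29-fold lower, adjusted p = 0.0181) and by 0.34 ± 0.11 in inflamed mucosa (1.26-fold lower, adjusted p = 0.0419). The call in inflamed mucosa was lost under 7 of 13 other settings and without tumour 3, inflamed mucosa 1, 2 or 3, or normal mucosa 1, 2 or 4, where the adjusted p ran from 0.0509 to 0.121, and under the 7 settings from 0.0512 to 0.117. The call in tumours was lost without normal mucosa 2 (adjusted p = 0.0523). Ndufa10, an accessory subunit with a nucleoside kinase-like fold, lay just outside the threshold in tumours. It read 10.93, 10.88, 10.92, 10.80 and 10.88 in tumours, 10.88, 10.80, 10.76 and 10.69 in inflamed mucosa and 10.74, 10.57, 10.59 and 10.84 in normal mucosa. Its difference from normal mucosa was +0.20 ± 0.08 (adjusted p = 0.0604), with overlap from normal mucosa 6. It was called with sex as covariate (adjusted p = 0.0347), with cyclic loess (0.0302) and without normal mucosa 6 (0.0254). The other 15 accessory subunits ran from -0.35 (Ndufa6) to +0.25 (Ndufb6) in tumours against normal mucosa, and from -0.33 (Ndufa6) to +0.12 (Ndufb6) in inflamed against normal mucosa.

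Complex II, succinate dehydrogenase, oxidises succinate in the citric acid cycle and has no mitochondrially encoded part. The difference from normal mucosa was below 0 for all 4 subunits in both comparisons, with medians of -0.20 in inflamed mucosa and -0.26 in tumours. Most genes also lay below 0, at 12362 of 19938 in inflamed mucosa and 12509 in tumours. Sdhb, the iron-sulphur subunit, was called in both comparisons, and Sdhc, a membrane anchor, in tumours. Sdhb read 10.21, 10.20, 10.07, 10.09 and 9.94 in tumours, 10.18, 10.17, 10.12 and 9.99 in inflamed mucosa and 10.50, 10.38, 10.37 and 10.30 in normal mucosa. All normal arrays lay above all tumour and inflamed arrays. The difference was -0.29 ± 0.08 in tumours (1.22-fold lower, adjusted p = 0.0144) and -0.27 ± 0.08 in inflamed mucosa (1.21-fold lower, adjusted p = 0.0307). The call in tumours held under all 13 other settings and without each of 13 arrays. That in inflamed mucosa was lost with the 2 groups alone (adjusted p = 0.0567) and without inflamed mucosa 2, 3 or 4 or normal mucosa 1 or 2, with an adjusted p of 0.0511 to 0.0900.

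Sdhc read 11.04, 10.99, 10.91, 10.95 and 10.86 in tumours, 11.07, 10.98, 10.83 and 11.04 in inflamed mucosa and 11.33, 11.14, 11.11 and 11.23 in normal mucosa. Again all normal arrays lay above all tumour and inflamed arrays. The difference was -0.25 ± 0.08 in tumours (adjusted p = 0.0227) and -0.22 ± 0.08 in inflamed mucosa (adjusted p = 0.0609), just outside the threshold there. In inflamed mucosa Sdhc was called with age as covariate (adjusted p = 0.0464) and with arrays centred on their medians (0.00216). The call in tumours was lost when normal mucosa 1 was left out (adjusted p = 0.0694) or cyclic loess was used (adjusted p = 0.0804). Sdha, the flavoprotein subunit, and Sdhd, the other membrane anchor, differed by -0.27 (interval -0.53 to -0.01) and -0.20 (interval -0.46 to 0.07) in tumours. Neither was called. In tumours against inflamed mucosa the 4 subunits ran from -0.09 to -0.01, none called and 0 with an unadjusted p below 0.05.

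**Figure D3:**
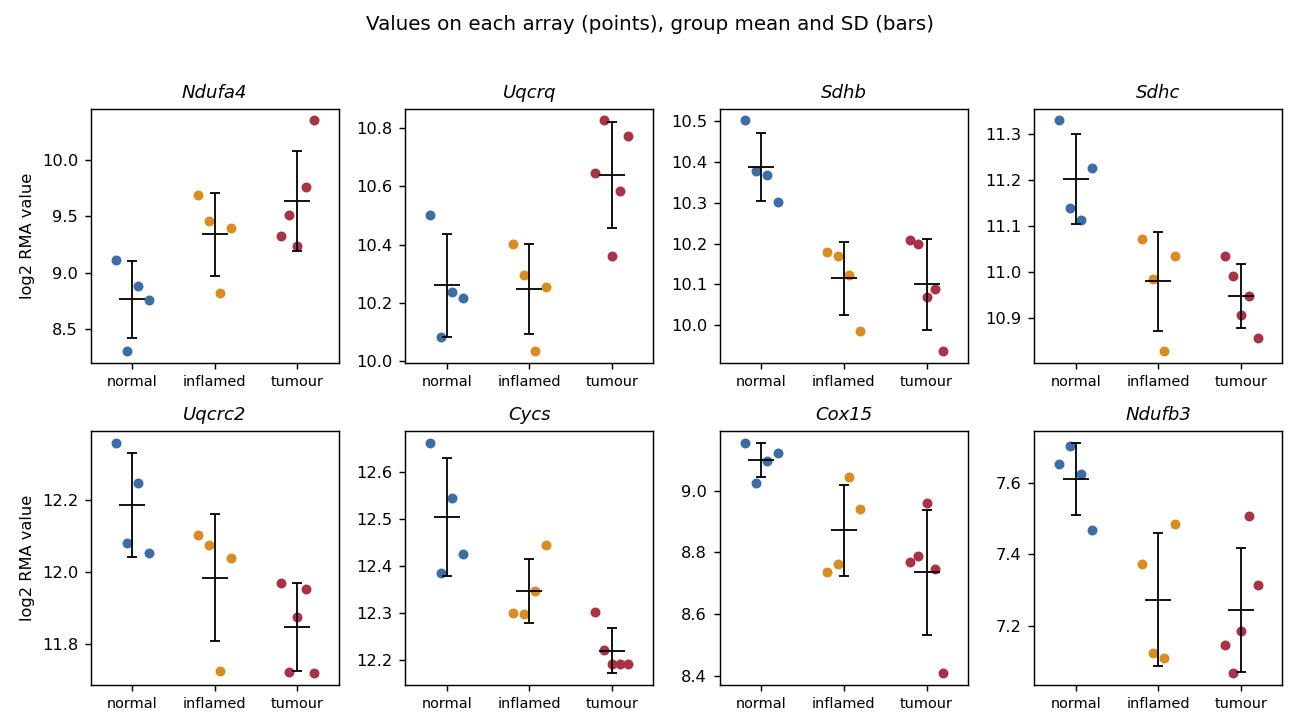
Log2 RMA value on each array (points), with group mean and SD (bars), of 8 members called in at least 1 comparison with normal mucosa, in normal mucosa (blue, n = 4), inflamed mucosa (orange, n = 4) and adenocarcinoma (red, n = 5). Each panel has its own vertical scale, and values are not comparable between panels. The 4 normal arrays lie above all others for Sdhb and Sdhc, and below all tumours for Ndufa4.

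Complex III moves electrons from ubiquinol to cytochrome c, and 2 of its 5 members were called in adenocarcinoma, in opposite directions. That share, 40.0%, is near the 35.8% of all genes called. Uqcrc2, a core protein, read 11.97, 11.72, 11.88, 11.95 and 11.72 in tumours, 12.10, 12.07, 11.72 and 12.04 in inflamed mucosa and 12.36, 12.08, 12.25 and 12.05 in normal mucosa. No tumour reached normal mucosa. It fell by 0.34 ± 0.10 in tumours (1.26-fold, adjusted p = 0.0208). That call was lost with cyclic loess (adjusted p = 0.0647), without tumour 2 (0.0531) and without normal mucosa 1 (0.0634). In inflamed mucosa its difference of -0.20 was not called (adjusted p = 0.168). Uqcrq, a small subunit beside cytochrome b, read 10.64, 10.83, 10.36, 10.58 and 10.77 in tumours, 10.40, 10.30, 10.03 and 10.26 in inflamed mucosa and 10.50, 10.08, 10.24 and 10.22 in normal mucosa. Tumour 3 lay within the normal range, below normal mucosa 1. It rose by 0.38 ± 0.12 in tumours against normal mucosa (1.30-fold, adjusted p = 0.0209), and the call was lost with arrays centred on their medians (adjusted p = 0.0960) and without tumour 2 (0.0547) or normal mucosa 2 (0.0696). Uqcrc1, Uqcrfs1 (the Rieske iron-sulphur protein) and Cyc1 (cytochrome c1) differed by -0.13, +0.06 and -0.14 in tumours, none called.

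Cycs, the soluble electron carrier, read 12.30, 12.22, 12.19, 12.19 and 12.19 in tumours, 12.30, 12.30, 12.35 and 12.44 in inflamed mucosa and 12.66, 12.39, 12.54 and 12.42 in normal mucosa. Every tumour lay below every normal array, and inflamed arrays overlapped normal ones. It fell by 0.28 ± 0.08 in tumours (1.22-fold, adjusted p = 0.0106), whereas in inflamed mucosa the difference of -0.16 was not called (adjusted p = 0.147). The call in tumours was lost with cyclic loess, where the difference was -0.16 (adjusted p = 0.0959). The identity of this signal is uncertain. The cluster used is numbered among clusters of chromosome 5 (19 of 20 neighbours), although Cycs lies on chromosome 6, and near-identical copies elsewhere could share its probes. The cluster numbered among chromosome 6 clusters was dim, at 5.97 to 6.36 in the group means, and differed by -0.38 ± 0.17 in tumours (adjusted p = 0.0904). The same doubt holds for Cox6c and Cox7b, whose clusters were numbered among chromosomes 12 and 1 rather than 15 and X. Only members were examined in this way. In the other lists below, clusters of Atp5g2, Atp5pb, Atp5l and Suclg2, among others, are also numbered beside those of genes on other chromosomes.

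Complex IV passes electrons to oxygen, and Ndufa4 had the largest difference of any member in both comparisons with normal mucosa. Ndufa4 read 9.33, 9.51, 9.24, 9.76 and 10.35 in tumours, 9.69, 9.46, 8.82 and 9.40 in inflamed mucosa and 9.11, 8.31, 8.88 and 8.76 in normal mucosa. All tumours lay above all normal arrays, and inflamed mucosa 3 fell within the normal range. It rose by 0.87 ± 0.23 in tumours (1.83-fold, adjusted p = 0.0109) and differed by +0.58 ± 0.24 in inflamed mucosa (interval 0.05 to 1.10, adjusted p = 0.0936). The tumour call held under all 13 other settings and without each of 13 arrays. Without inflamed mucosa 3 the difference in inflamed mucosa was +0.75 (adjusted p = 0.0417). It was also called there with sex as covariate (adjusted p = 0.0477) and without tumour 6 (0.0494).

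None of the other complex IV subunits was called. With Ndufa4, 16.7% of complex IV members were called in tumours against normal mucosa, beside 35.8% of all genes. Cox5a, a matrix-side nuclear subunit, read 10.70, 10.91, 10.64, 10.66 and 10.70 in tumours, 10.67, 10.60, 10.33 and 10.53 in inflamed mucosa and 10.99, 10.68, 10.79 and 10.65 in normal mucosa. It differed from normal mucosa by -0.25 in inflamed mucosa (adjusted p = 0.0851) and -0.06 in tumours, and the groups overlapped. Cox4i1, a regulatory subunit, differed by +0.12 in tumours and -0.10 in inflamed mucosa against normal mucosa, and by +0.22 in tumours against inflamed mucosa (adjusted p = 0.193). Cox5b and Cox7b arrays did not overlap in tumours against normal mucosa, at -0.20 and -0.14, but neither was called. Cox7b read from its own chromosome's cluster differed by -0.25 ± 0.07 (adjusted p = 0.0105), and Cox6c by -0.06.

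The heme A enzymes build the cofactor of complex IV, and Cox15 was called in tumours. Cox15, which makes heme A from heme O, read 8.77, 8.79, 8.96, 8.75 and 8.41 in tumours, 8.74, 8.76, 9.04 and 8.94 in inflamed mucosa and 9.16, 9.02, 9.10 and 9.12 in normal mucosa. Every tumour lay below every normal array. It fell by 0.36 ± 0.10 in tumours (1.29-fold, adjusted p = 0.0167), a call kept under all 13 other settings and without each of 13 arrays. Cox10, which makes heme O from heme B, read 9.03, 9.06, 8.93, 8.94 and 8.93 in tumours, 9.07, 9.03, 9.16 and 9.02 in inflamed mucosa and 9.06, 8.82, 8.79 and 9.34 in normal mucosa. It differed by -0.02 in tumours (interval -0.24 to 0.20), with overlap throughout.

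The members also varied from array to array within a tissue. Their mean ran from 10.18 to 10.27 in tumours, from 9.99 to 10.34 in inflamed mucosa and from 10.22 to 10.42 in normal mucosa. Inflamed mucosa 3 held the lowest of the 13 values for 20 of 41 members, whereas it was lowest for 6.75% of all genes. Normal mucosa 1 held the highest value for 13 members and for 11.7% of all genes. Inflamed mucosa 3 was also the lowest of the inflamed arrays for the mean of the other respiratory chain subunits (10.02), ATP synthase (10.90), the mitochondrial ribosome (8.18) and the citric acid cycle (10.53). It was not the lowest of them for the regulators of mitochondrial biogenesis (8.14, lowest 8.06) or the pyruvate and lactate genes (9.34, lowest 9.23), and was the highest for the heme A enzymes (9.10). Over all clusters the same array had the highest median, 6.59. Without it, 0 members were called lower in inflamed mucosa, Ndufa4 was called higher, and the member median was -0.03. Whether array quality has a part in these values was not tested.

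**Figure D4:**
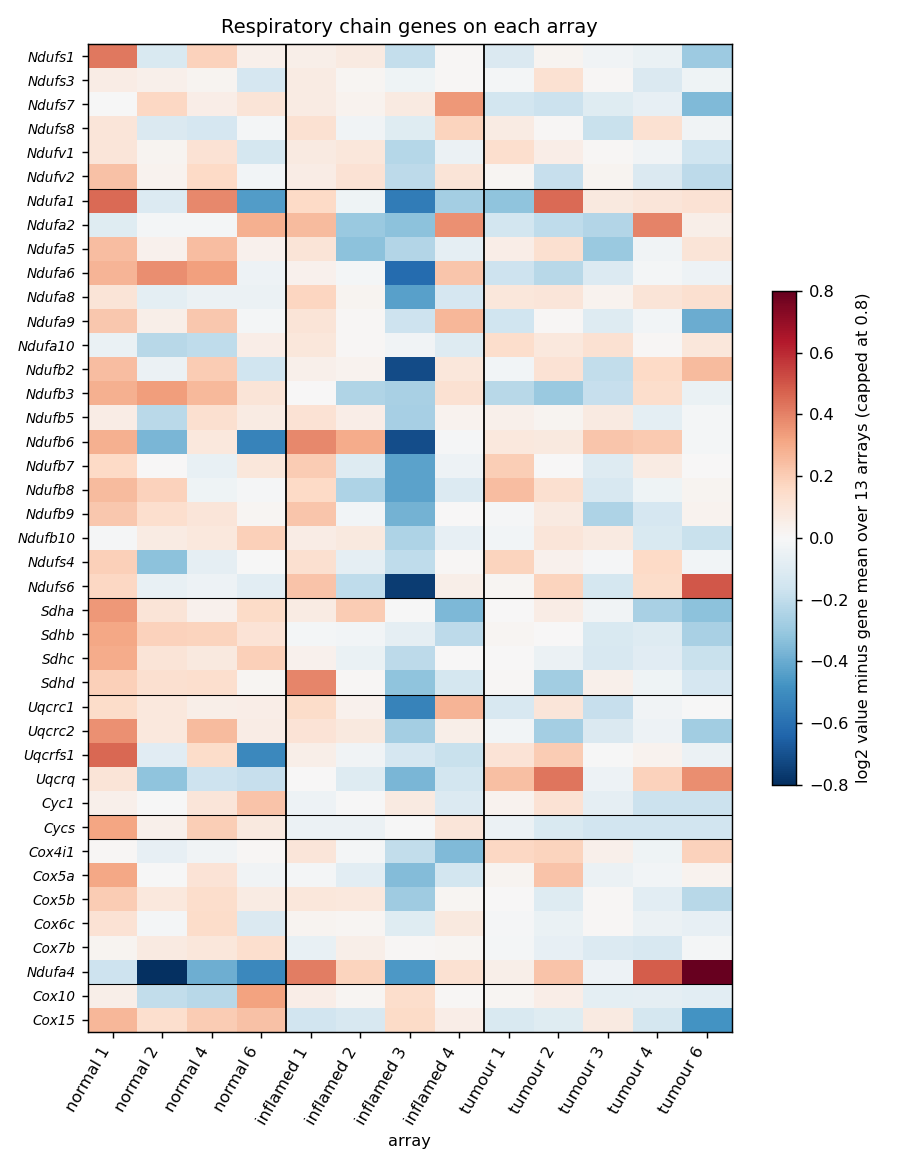
Log2 value of each member on each array minus that member's mean over the 13 arrays (colour, capped at 0.8), in rows by complex and columns by group. The column of inflamed mucosa 3 is blue for most members, and Ndufa4 runs opposite to most other rows in tumour 6.

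The genes whose level over the 13 arrays was most like the member mean were Mdh2 (r = 0.929) and Mdh1 (r = 0.925), the malate dehydrogenases, followed by Anxa4 (r = 0.905), Ppp1r15b (r = 0.880) and Vcpip1 (r = 0.879). These are descriptions over 13 arrays that share scaling and tissue groups, chosen as the highest among all genes that are no members.

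Further genes of the pathway came from lists chosen with earlier results known. For scale, 35.8% of all genes were called in tumours and 26.7% in inflamed mucosa against normal mucosa. Between tumours and inflamed mucosa it was 7.12%. Of 20 other respiratory chain subunits, 0 were called by limma in inflamed mucosa (1 at unadjusted p below 0.05) and 2 were lower in tumours, Cox8a (-0.30) and Uqcrb (-0.34). With arrays centred on their medians these counts were 7 and 6, all lower, and without inflamed mucosa 3 or 4 the count in inflamed mucosa was 1. Of 15 ATP synthase genes, 0 were called in any comparison by limma, with 0, 2 and 2 at an unadjusted p below 0.05 in inflamed against normal, tumour against normal and tumour against inflamed mucosa. Their medians were -0.06, -0.01 and +0.02. In tumours against normal mucosa 1 was called under 5 other settings and without tumour 3 or 4 or inflamed mucosa 1 or 4, and 4, all lower, with centring, which gave 3 lower in inflamed mucosa. In tumours against inflamed mucosa 1 was called with array weights and without tumour 3 or inflamed mucosa 1. Of 5 muscle and tissue isoforms of complex IV, 1 rose and 2 fell in tumours against normal mucosa, 1 fell in inflamed mucosa, and 0 were called between tumours and inflamed mucosa by limma (1 at an unadjusted p below 0.05, and 1 called with array weights). Cox7a1 fell by 0.83 in inflamed mucosa and by 1.02 in tumours, where Cox8b fell by 0.43 and Cox6b2 rose by 0.45 (adjusted p = 0.0303). Cox8b and Cox6b2 were dim, with means of 5.92 and 6.38 in tumours and 6.34 and 5.94 in normal mucosa. The Cox8b call was lost with cyclic loess. That of Cox6b2 was lost with the 2 groups alone, with centring, and without tumour 2 or 6 or normal mucosa 1 or 4. Centring gave 3 lower in inflamed mucosa, and 2 were called there without normal mucosa 1. The 13 mitochondrially encoded subunits were not analysed here.

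Of 33 assembly factors, 6 rose and 3 fell in tumours against normal mucosa, and 3 rose and 2 fell in inflamed mucosa. These shares, 27.3% and 15.2%, were below the 35.8% and 26.7% of all genes called. Ndufaf4, a complex I assembly factor, rose by 0.53 in tumours and by 0.52 in inflamed mucosa. Sdhaf1, a complex II assembly factor, rose by 0.56 in tumours, and Cox11, which delivers copper to complex IV, fell by 0.66. Against inflamed mucosa Sdhaf1 differed by +0.45 in tumours (adjusted p = 0.0493), the only factor called there (3.03%, beside 7.12% of all genes). That call was lost under 4 of 14 settings and without 10 of 13 arrays. The call of Cox17, a copper chaperone, was a fall of 0.52 in inflamed mucosa. The total of 5 calls in inflamed mucosa became 2 without normal mucosa 1 or normal mucosa 2, and 3 without inflamed mucosa 1, inflamed mucosa 2 or normal mucosa 4. It was 2 with the 2 groups alone, and centring gave 1 higher and 7 lower there and 3 higher and 8 lower in tumours.

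Of 13 citric acid cycle genes, 0 rose and 3 fell in tumours against normal mucosa (23.1%, beside 35.8% of all genes called). Of these, Cs, citrate synthase, fell by 0.64 (1.56-fold, adjusted p = 4.97e-05). Cs fell by 0.33 in inflamed mucosa too, where Idh2, the mitochondrial NADP-dependent isocitrate dehydrogenase, rose by 0.51 (adjusted p = 0.0123, lost with centring, which left 3 lower). Against inflamed mucosa, Cs differed by -0.32 in tumours (adjusted p = 0.0305). With the replicate block among these arrays that call was lost, at -0.27 (adjusted p = 0.0676). It was also lost with either centring and without tumour 2, 4 or 6 or any of the 4 inflamed arrays. The 3 calls in tumours against normal mucosa became 1 without tumours 1, 4 or 6, inflamed mucosa 1 or normal mucosa 1, and with the 2 groups alone, cyclic loess or array weights, and 8, all lower, with centring. Of 14 regulators of mitochondrial biogenesis, 2 rose and 4 fell in tumours (42.9%, beside 35.8% of all genes). In inflamed mucosa 35.7% of the regulators were called, beside 26.7% of all genes. Ppargc1a, the coactivator PGC-1α, fell by 2.25 ± 0.26 in tumours (4.75-fold, adjusted p = 2.18e-05), and by 1.18 in inflamed mucosa. Against inflamed mucosa it differed by -1.07 in tumours (adjusted p = 0.0225), a call lost without tumour 1 or 6 or inflamed mucosa 2, 3 or 4, and with the mean of all clusters (adjusted p = 0.0538 to 0.0765). The other regulator called there was Ppargc1b, a relative of PGC-1α, at -0.69 (adjusted p = 0.0427), lost under 4 of 14 settings and without 9 of 13 arrays. The list's 2 calls became 0 without tumour 1 or 6 or inflamed mucosa 2, 3 or 4, and 1 without tumour 4 or normal mucosa 2, 4 or 6 and under 5 settings. Pprc1, another relative of PGC-1α, rose by 1.19 in tumours (2.28-fold, adjusted p = 4.92e-05) and by 0.90 in inflamed mucosa. The regulators' total of 5 calls in inflamed mucosa became 3 without inflamed mucosa 2 or 4, and centring gave 1 higher and 5 lower in each comparison with normal mucosa.

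Of 41 mitochondrial ribosome genes, 20 rose and 1 fell in tumours against normal mucosa (51.2%, beside 35.8% of all genes), with a list median of +0.29. Mrpl13 rose by 0.84, Mrps34 by 0.67 and Mrpl3 by 0.64. Against inflamed mucosa Mrps34 differed by +0.52 in tumours (adjusted p = 0.00903), the only gene of the list called there (2.44%, beside 7.12% of all genes). That call was kept under all 14 settings and without each of 13 arrays. In inflamed mucosa 4 rose and 2 fell (14.6%, beside 26.7% of all genes), and without inflamed mucosa 3 the total of 6 calls was 11. With the 2 groups alone it was 3, and centring gave 1 higher and 8 lower there. Of 16 import and outer membrane genes, 10 rose and 2 fell in tumours, and 7 rose and 1 fell in inflamed mucosa. The clusters read for Tomm20, Tomm22, Timm23, Hspd1, Hspe1 and Slc25a5 are numbered beside those of genes on other chromosomes. The calls were not counted without them. Hspa9, the import motor chaperone, rose by 0.71 in tumours, and Tomm40, the outer membrane channel, by 0.53. Slc25a4, an ADP/ATP carrier abundant in muscle, rose by 2.16 in inflamed mucosa and by 1.60 in tumours. The list's name is loose, as Slc25a4, Slc25a5, Hspd1, Hspe1 and Phb2 belong neither to the import machinery nor to the outer membrane. The total of 8 import calls in inflamed mucosa became 3 without inflamed mucosa 1 or 4, 4 without inflamed mucosa 2, normal mucosa 1 or normal mucosa 2, and 5 without tumour 3 or 4. It was 2 with the 2 groups alone and 4 with arrays centred on the medians of all clusters, and centring on the medians of genes gave 2 higher and 5 lower. In tumours, that centring gave 10 higher and 4 lower in the ribosome list and in the import list alike.

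Of 13 pyruvate and lactate genes, 2 rose and 6 fell in tumours against normal mucosa, and 3 rose and 5 fell in inflamed mucosa. Each share was 61.5%, beside 35.8% and 26.7% of all genes. Pdk2, a kinase that inactivates pyruvate dehydrogenase, fell by 2.06 in tumours (4.16-fold, adjusted p = 4.80e-06). Against inflamed mucosa Pdk2 differed by -1.06 in tumours (adjusted p = 0.0055), a call kept under all 14 settings and without each of 13 arrays. Pdk4, another such kinase, rose by 2.14 in inflamed mucosa and fell by 2.14 in tumours against inflamed mucosa. Its group means were 5.32 in normal mucosa, 7.46 in inflamed mucosa (SD 1.00) and 5.33 in tumours. Those of normal mucosa and tumours lay below the 25th percentile of gene means, 5.67. Pdk2 and Pdk4 were the 2 genes of the list called between tumours and inflamed mucosa (15.4%, beside 7.12% of all genes). Slc16a1, a monocarboxylate transporter that also carries butyrate, fell by 0.73 in tumours. The 8 calls in tumours became 5 without tumour 2 or normal mucosa 2, and the 8 in inflamed mucosa became 5 without inflamed mucosa 2 or 4 or normal mucosa 1 or 2. Centring gave 0 higher and 7 lower in tumours, and 2 higher and 7 lower in inflamed mucosa.

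In bulk tissue, fewer cells of a type and less RNA per cell cannot be told apart, and cell type markers moved with the groups. Mature colonocyte markers fell for 15 of 16 genes in tumours and 9 of 16 in inflamed mucosa, and their mean ran from 11.92 to 12.04 in normal, 11.003 to 11.16 in inflamed and 8.80 to 9.91 in tumour arrays. Of 11 pan-epithelial markers, 1 rose and 2 fell in tumours and 0 rose and 4 fell in inflamed mucosa, with means of 11.52 to 11.62 in normal, 11.36 to 11.50 in inflamed and 11.45 to 11.55 in tumour arrays. All 13 smooth muscle markers rose in inflamed mucosa and 9 of 13 in tumours, with means of 6.67 to 7.83, 9.78 to 10.81 and 8.28 to 8.53. Endothelial markers rose for all 12 genes in both, fibroblast markers for 11 of 12 in both, and macrophage markers for 11 of 12 in inflamed mucosa and 12 of 12 in tumours. Of 12 neutrophil markers, 8 rose and 1 fell in tumours and 2 rose and 3 fell in inflamed mucosa, and of 11 B and plasma cell markers 4 rose and 1 fell, and 8 rose. Of 10 T and NK cell markers, 3 fell in tumours, and 1 rose and 1 fell in inflamed mucosa. Their mean was 7.51 on normal mucosa 1, 5.81 to 5.93 on the other normal arrays and 5.56 to 5.85 in tumours. Normal mucosa 1 was also the highest normal array for macrophage (7.88) and neutrophil (7.24) markers. Of 12 skeletal muscle markers, 1 rose and 6 fell in tumours and 1 rose and 4 fell in inflamed mucosa. Of 9 adipocyte markers 1 rose and 2 fell in each, and proliferation genes rose for 13 of 15 in tumours and 8 of 15 in inflamed mucosa. Their part in the members' differences was not tested.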

How the data were processed

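RNA from 13 tissue samples was measured on Affymetrix Mouse Gene 1.0 ST arrays. The values are log2 RMA expression values deposited by the authors, 1 per transcript cluster, computed with Expression Console 1.1 after image processing with Command Console 2.0, per the series' design text. RMA corrects background and brings the probes of all arrays to a common distribution before summarising them, so a shift of total RNA is removed and small differences of dim genes shrink. No detection measure per probe was used here, and the number of arrays limits the precision.

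Of 35556 clusters, 21789 name 1 gene, 1621 several and 12146 were not listed. The cluster with the highest mean stood for each gene, giving 19938 genes (999 with several clusters). Gene names were updated through RefSeq (21698 clusters matched). limma 3.58.1 in R 4.3.3 fitted 3 groups at once, with no covariate. A 95% interval is from the same fit. The labels name separate samples, not which mouse each came from, so p-values measure the spread between these samples, which may be technical in part. The fit was also run on simulated data with known differences. Those data were independent noise around gene means, without pairing, collection or scaling effects, so that run does not check the calls against these. The members and all lists were chosen with earlier results of these data known. Named members are those with the smallest adjusted p by direction and by complex, those beside the threshold, and Cycs, Cox10, Cox15 and Ndufa4. Of each other list, named genes are some of the up to 3 called genes with the smallest adjusted p per comparison.

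Same-numbered tumour and inflamed arrays share sex and age, as do normal mucosa 1, 2 and 4 with the tumours of their number. The correlations of tumour and inflamed arrays in the report were taken as pairing. This is an inference, as tumour 1 and normal mucosa 2, of different numbers, reached 0.283. Correlations of normal arrays with the same number ran from -0.126 to 0.0413, so those were not taken as pairs. Alternatives were a replicate block, sex or age as covariates, 2 groups alone, a filter on dim genes, other scalings, other variance models, array weights, all clusters of a gene and each array left out. Centring on the medians of all clusters, and own-chromosome clusters for Cycs, Cox6c and Cox7b, were added after seeing the data.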

Additional observations from a re-analysis of the deposited data

Results flagged for a closer look

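Among 126 groups of 4 or 5 arrays examined for a sample far from the rest, 7 had an end value whose gap to its neighbour was above Dixon's critical value. Chance gives such a gap in about 1 of 20 groups. Ndufs3 read 10.54 on normal mucosa 6, with the next array at 10.71, and Ndufa8 read 10.33 on normal mucosa 1, with the next at 10.18. Ndufs7 read 12.55 on inflamed mucosa 4 (next 12.27), Ndufb2 7.26 on inflamed mucosa 3 (next 8.01) and Uqcrc2 11.72 on inflamed mucosa 3 (next 12.04). Cycs read 12.30 on adenocarcinoma 1 (next 12.22), and Cox5a read 10.91 on adenocarcinoma 2 (next 10.71).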

How the results depend on the processing

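In inflamed against normal mucosa, the count of 2 members called moved to 0 with the 2 groups alone, to 22 with arrays centred on their medians, and to 1 with a trend and robust variance, with array weights or with arrays centred on the medians of all clusters. Leaving out 1 array at a time gave 0 to 3. The median over members was -0.30 with arrays centred on their medians, and -0.16 to -0.03 without an array. In adenocarcinoma against normal mucosa, 9 members became 20 with arrays centred on their medians (median -0.20), and 6 to 11 without an array. In adenocarcinoma against inflamed mucosa, 0 members became 1, Uqcrq, with the replicate block among tumour and inflamed arrays or with arrays centred on their medians. With cyclic loess or with a trend and robust variance the 1 member was Ndufs7. Array weights gave 2, Uqcrq and Ndufs7, and leaving out 1 array at a time gave 0 to 1. The replicate block over all arrays also joins normal arrays, which were not taken as pairs. It gave 3, 9 and 0 members called in the 3 comparisons. Under it Ndufb3 in inflamed mucosa and Ndufs7 in tumours lost their calls against normal mucosa, Ndufa4 and Cox15 gained one in inflamed mucosa and Sdha in tumours. No called member changed sign under any setting run. The cause of these moves was not tested. The members' standard errors limit what 4 or 5 arrays can show, and a miss of the threshold does not show that levels were equal.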
